A study of Mus musculus with 8 samples.

Results

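The fibrillar collagen and matrix genes described here are Col1a1, Col1a2, Col3a1, Col5a2, Fn1 and Sparc. They were chosen by name, with earlier results of these data known. Their positions in the mouse build mm9 were fixed by a rule that uses no measured value. Signal was deposited as RPM, read counts scaled to the total of the library, in rows of the genome 10 kb wide. A row belongs to a gene where it shares at least 1 base with it, and the flank is 50 kb on each side without rows of another member. By this rule 38 rows lay in the 6 genes and 52 rows only in their flanks, 90 rows of the 245206 used. No gene row was lost to the filter on low values.

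The study placed epitope-tagged histone H3 on the genome in C3H10T1/2 cells, a mouse embryo-derived line of mesenchymal progenitors, by chromatin immunoprecipitation with an antibody to the HA tag and sequencing. The 4 lines stably express FLAG-HA-tagged H3.3K36M, wild-type H3.3 (H3.3WT), H3.1K36M or wild-type H3.1 (H3.1WT), at the passages the labels give as 10 to 15. K36M replaces lysine 36 of the histone by methionine. Each of the 4 lines had 1 HA library, and the 8 samples also held 1 input DNA library per line, which was not used here. The cells keep their own untagged H3, so the signal shows where the tagged histone sits and not total H3. With 1 library for each line, nothing shows how far a repeat would vary, and no test between lines was possible.

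H3.1 is placed into chromatin mainly when DNA is replicated, while H3.3 is also placed outside replication, typically at transcribed genes, enhancers and promoters. Methionine at this position is known to inhibit methyltransferases that act on H3 lysine 36, a residue that carries methyl marks along transcribed gene bodies. Fibrillar collagens form the banded fibres of connective tissue, and mesenchymal cells such as fibroblasts and osteoblasts make them in quantity. Type I collagen is built from the chains of Col1a1 and Col1a2, type III from Col3a1, and the type V chain of Col5a2 takes part in starting and sizing fibrils. Fibronectin (Fn1) is a glycoprotein that links cells to the matrix, and Sparc is a secreted glycoprotein that binds collagen. RNA was not analysed here, so whether these lines transcribe the genes is not known from these values.

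The deposited list of H3.3K36M peaks, which are the regions the authors called as enriched in that line, covered the 3 collagen genes of types I and III from end to end. Col1a1 (chr11:94797000-94815000, 18 kb) lay in a peak of 40.2 kb at chr11:94787801-94828000, rank 51 by length of 8375 peaks. Col1a2 (chr6:4455000-4492000, 37 kb) lay in a peak of 45.0 kb at chr6:4450801-4495800, rank 36. Col3a1 (chr1:45368000-45407000, 39 kb) lay in a peak of 52.0 kb at chr1:45364401-45416400, rank 24. Each of these peaks ran past both ends of its gene, by 9.2 and 13.0 kb at Col1a1, by 4.2 and 3.8 kb at Col1a2, and by 3.6 and 9.4 kb at Col3a1.

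The other 3 genes had little or no peak cover. Col5a2 (chr1:45431000-45561000) held 1 peak of 3.6 kb at chr1:45505201-45508800, which is 2.77% of the gene. Neither Fn1 (chr1:71632000-71700000, 68 kb) nor Sparc (chr11:55208000-55234000, 26 kb) held an H3.3K36M peak, and each had 1 peak in its flank, at chr1:71726201-71731000 and at chr11:55266801-55270400. Peaks covered 30.7% of the bases of the 6 genes, against 1.20% of the chromosomes used. In rows, 14 of the 38 gene rows held peak bases, against 4.25% of all rows. None of the 73 H3.1K36M peaks lay in a gene or a flank of the 6. Those peaks cover 0.204 Mb in all, against 31.7 Mb for the H3.3K36M peaks, so their absence here says little. Promoter bases were available for 3 of the 6 genes. Of these, the gene starts of Col1a2 and Col3a1 lay inside a peak and that of Sparc did not. The promoter bases before these 3 starts are printed 5′ to 3′ on the strand of the gene. They are from RefSeq in the build GRCm38.p6, whose positions cannot be set against the mm9 positions of the rows and peaks.
Col1a2, chr6:4505368-4505617, plus strand: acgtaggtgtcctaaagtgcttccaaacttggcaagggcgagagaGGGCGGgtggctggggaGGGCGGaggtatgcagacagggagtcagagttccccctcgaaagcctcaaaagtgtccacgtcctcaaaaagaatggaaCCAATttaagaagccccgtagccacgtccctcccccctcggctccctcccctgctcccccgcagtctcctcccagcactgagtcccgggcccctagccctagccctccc
Col3a1, chr1:45311288-45311537, plus strand: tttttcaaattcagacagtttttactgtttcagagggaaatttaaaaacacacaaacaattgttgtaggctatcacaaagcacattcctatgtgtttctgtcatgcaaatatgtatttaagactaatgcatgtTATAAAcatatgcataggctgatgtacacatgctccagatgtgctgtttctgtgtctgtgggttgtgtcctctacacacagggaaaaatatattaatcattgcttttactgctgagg
Sparc, chr11:55420081-55420330, minus strand: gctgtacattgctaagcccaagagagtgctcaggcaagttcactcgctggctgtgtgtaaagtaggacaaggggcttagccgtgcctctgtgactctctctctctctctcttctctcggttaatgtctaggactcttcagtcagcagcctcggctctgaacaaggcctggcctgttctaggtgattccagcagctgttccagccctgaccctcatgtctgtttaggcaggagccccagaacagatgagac

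Capitals mark matches to the motifs searched on both strands, which were CCAAT, a GC box with the letters GGGCGG, and a TATA box with the letters TATAAA. Col1a2 had CCAAT from 109 to 105 bases before its start, and GGGCGG from 205 to 200 and from 188 to 183 bases before it. Col3a1 had TATAAA from 117 to 112 bases before its start. Of 32851 mouse promoters of the same 250 bases, 33.8% held CCAAT, 32.7% GGGCGG and 12.4% TATAAA. The base composition of the 3 differed widely, with 62% G and C at Col1a2, 35.2% at Col3a1 and 54% at Sparc, beside a median of 52.4% over all promoters. A match describes letters only, and these windows are far shorter than the 10 kb rows in which the signal was measured.

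The 4 HA libraries held between 35487141 and 46749609 reads in the table, and their median row held between 116 and 151 reads. The median of all rows was 3.004 RPM in the H3.3K36M line, 2.77 RPM in the H3.3WT line, 3.64 RPM in the H3.1K36M line and 3.65 RPM in the H3.1WT line. Intervals given with folds are exact (Clopper-Pearson) 95% intervals on the reads recovered from RPM. They account for the error of counting and nothing else, and sequenced reads that carry no molecular identifiers need not stem from separate molecules. Without the inputs, antibody yield and background cannot be told apart from placement of the histone. A scaling by the median of all row ratios would shift every log2 ratio by -0.12 for H3.3K36M over H3.3WT, 0.02 for H3.1K36M over H3.1WT, 0.41 for H3.3WT over H3.1WT and 0.28 for H3.3K36M over H3.1K36M.

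All 6 genes were rich in tagged H3.3, and all but Sparc had a mean below the median of all rows in both H3.1 lines. Averaged over the rows of a gene, the level lay between the 97.9 and 99.9 percentiles of all rows in H3.3K36M, and between the 97.5 and 99.9 percentiles in H3.3WT. In H3.1K36M the gene means lay between the percentiles 2.52 (Fn1) and 64.1 (Sparc), and in H3.1WT between 4.71 (Fn1) and 62.1 (Sparc). H3.3K36M over H3.1K36M was between 2.98-fold (Sparc) and 8.72-fold (Col1a2), with a median log2 ratio of 2.84 against -0.30 over all rows. H3.3WT over H3.1WT was between 3.02-fold (Sparc) and 6.78-fold (Fn1), with a median log2 ratio of 2.08 against -0.43 over all rows. The genes at the extremes changed over rows wholly inside the genes. There H3.3WT over H3.1WT ran from 3.35-fold (Col3a1) to 8.43-fold (Col1a2). H3.3K36M over H3.1K36M ran there from 5.06-fold (Col5a2) to 20.6-fold (Col1a1). At least 2-fold more H3.3 than H3.1 was found in 36 of the 38 gene rows in the K36M lines, against 8.18% of all rows and 64.2% of rows with an H3.3K36M peak. In the WT lines it was found in 37 of 38, against 10.3% of all rows and 56.5% of peak rows. The plot of H3.3 against H3.1 levels shows these rows at the H3.3-rich edge of the genome.

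**Figure D1:**
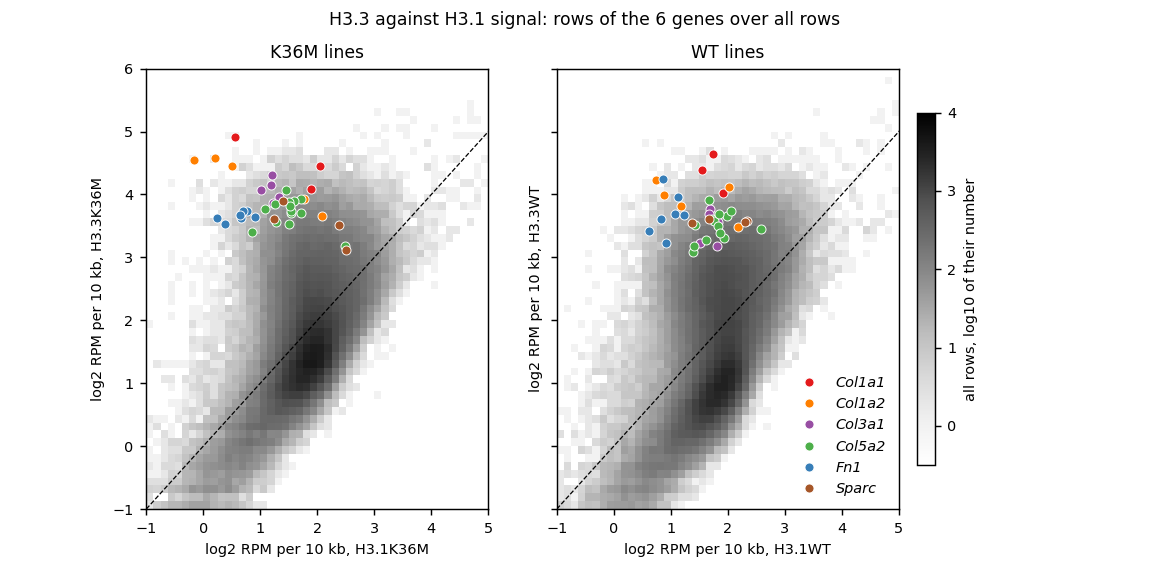
H3.3 level (vertical axis) against H3.1 level (horizontal axis), both as log2 RPM per 10 kb row, in the K36M lines (left) and the WT lines (right). Dots are the 38 rows of the 6 genes, grey is the log10 number of all rows, rows outside the axes are not drawn, and the dashed line marks equal levels; all 38 gene rows lie above it in both panels.

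The contrast with the surroundings ran in opposite directions for the 2 histone variants, as the plot of gene over flank shows. In H3.3K36M every gene exceeded its flank, by 1.44-fold (Col5a2) to 2.74-fold (Col1a2), with a median log2 ratio of 0.87. In H3.3WT every gene also exceeded its flank, by 1.22-fold (Col5a2) to 2.35-fold (Col1a2), with a median of 0.66. In both H3.1 lines every gene was below its flank, with a median log2 ratio of -1.15 in H3.1K36M and -0.89 in H3.1WT. This comparison is made within a library, so it does not depend on how libraries are scaled against each other. The flanks hold genes of their own: in GRCm38.p6, Sgca, Hils1 and Ppp1r9b lie within 50 kb of Col1a1, Atic within that distance of Fn1, and Atox1 and G3bp1 of Sparc. Col3a1 and Col5a2 neighbour each other and share flank rows, so they are not independent loci.

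**Figure D2:**
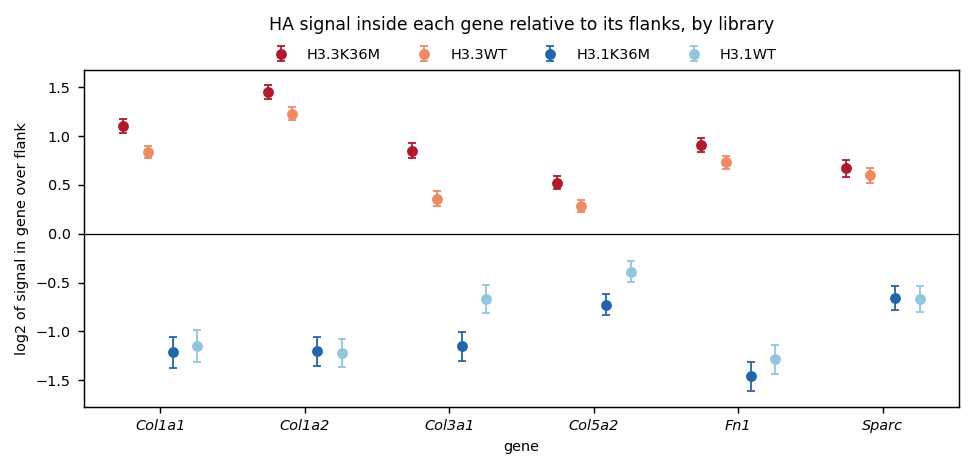
Log2 ratio of mean RPM per 10 kb in the gene over that in its flank, for the 6 genes in the 4 HA libraries, with exact 95% counting intervals. Both H3.3 libraries lie above 0 and both H3.1 libraries below 0 at every gene.

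Col1a1, which encodes the alpha 1 chain of type I collagen, carried the highest H3.3 mean of the 6 genes in both H3.3 lines. Its 3 rows averaged 23.0 RPM in the H3.3K36M line, 20.7 RPM in the H3.3WT line, 3.09 RPM in the H3.1K36M line and 3.34 RPM in the H3.1WT line. The flank averaged 10.7, 11.6, 7.19 and 7.41 RPM in the same order of lines. Both H3.3 lines were thus far above both H3.1 lines in the gene, and less so beside it. Over the whole gene H3.3K36M was 1.11-fold H3.3WT (interval 1.06 to 1.18), while H3.1K36M was 0.926-fold H3.1WT with an interval of 0.80 to 1.07 that holds 1.

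The 3 rows of Col1a1 differed from each other more than the gene mean shows. The row that lies wholly inside the gene, chr11:94800001-94810000, had 30.3 RPM in the H3.3K36M line, 20.9 RPM in the H3.3WT line, 1.47 RPM in the H3.1K36M line and 2.91 RPM in the H3.1WT line. It was the highest gene row of all 38 in H3.3K36M. There H3.3K36M was 1.45-fold H3.3WT (1.33 to 1.58) and H3.1K36M was 1.98-fold lower than H3.1WT (1.43 to 2.77), rank 229 among all rows counted from the lowest H3.1 ratio. H3.3K36M exceeded H3.1K36M by 20.6-fold (15.9 to 27.1), rank 5 of 245206 rows, and H3.3WT exceeded H3.1WT by 7.16-fold, rank 159. The row with the 3′ end, chr11:94810001-94820000, was the highest gene row of the 38 in H3.3WT and had 21.96 RPM in the H3.3K36M line, 24.9 RPM in the H3.3WT line, 4.12 RPM in the H3.1K36M line and 3.34 RPM in the H3.1WT line. Only in this row of the gene was H3.3K36M below H3.3WT, by 1.14-fold (1.04 to 1.24). The row with the start, chr11:94790001-94800000, had 16.9, 16.2, 3.69 and 3.76 RPM in the H3.3K36M line, H3.3WT, H3.1K36M and H3.1WT, and K36M and WT could not be told apart there within counting error.

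**Figure D3:**
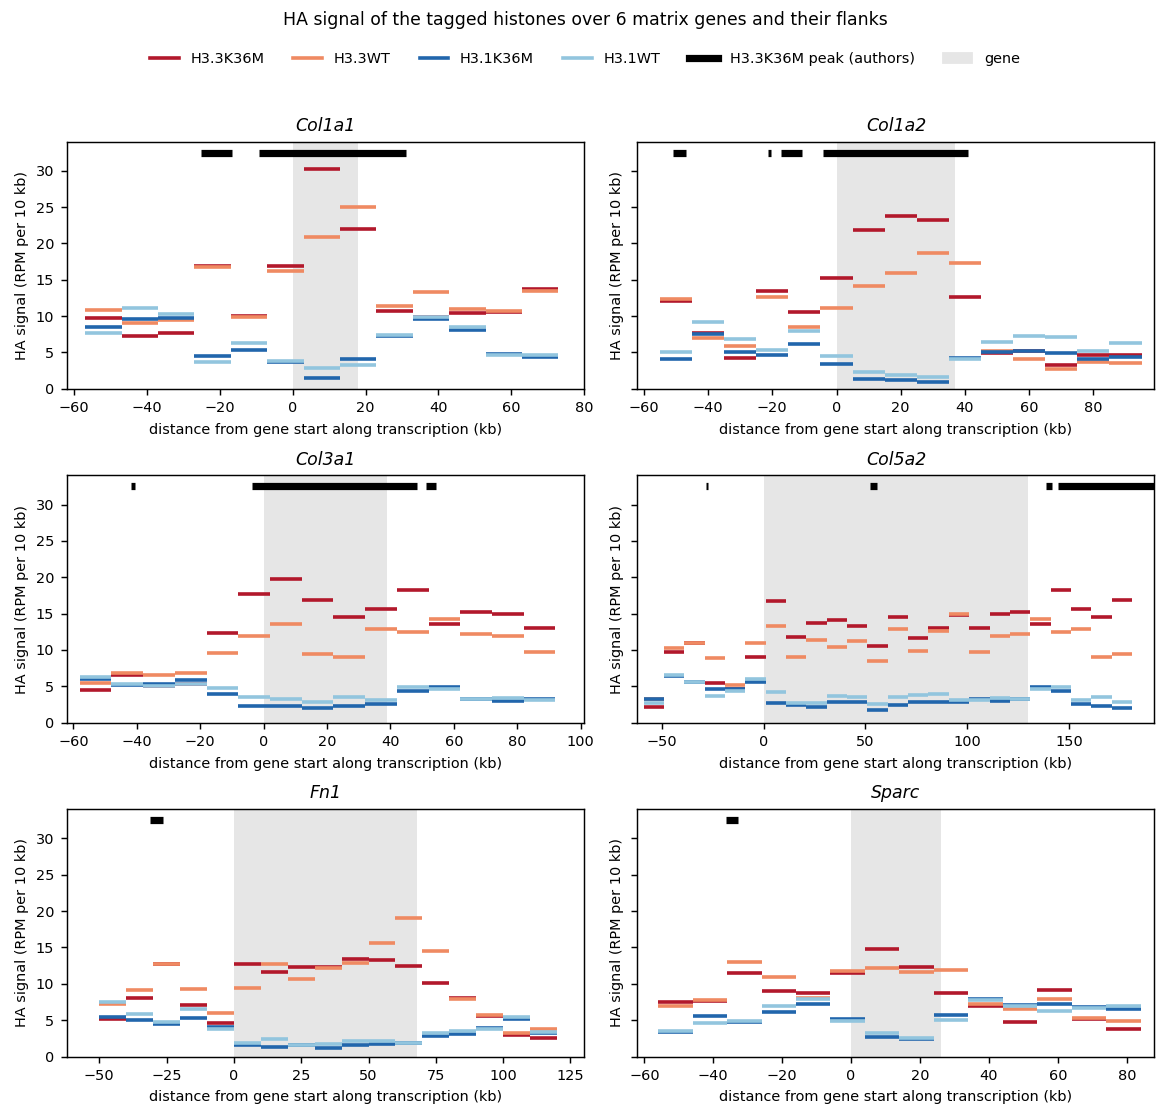
RPM per 10 kb row along each gene and its 50 kb flanks in the 4 HA libraries, with distance in kb along the direction of transcription on the horizontal axis. Shading marks the gene and black bars mark H3.3K36M peaks. In the mean of the rows, H3.3 is higher and H3.1 lower over the shaded genes than beside them. Single flank rows can exceed gene rows in H3.3.

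Col1a2, which encodes the alpha 2 chain of the same collagen, showed the widest gap between H3.3K36M and H3.1K36M in the gene means. Its 5 rows averaged 19.4 RPM in the H3.3K36M line, 15.4 RPM in the H3.3WT line, 2.22 RPM in the H3.1K36M line and 2.88 RPM in the H3.1WT line, and its flank 7.08, 6.57, 5.12 and 6.70 RPM. The gene was 1.26-fold as high in the H3.3K36M line as in the H3.3WT line (1.20 to 1.32) and 0.773-fold in H3.1K36M against H3.1WT (0.68 to 0.88). The flank moved in the same way for H3.1, at 0.765-fold (0.72 to 0.81), so the lower H3.1K36M level was not confined to the gene; over the rows wholly inside it the ratio was 0.601-fold (0.48 to 0.75). For H3.3 the flank ratio was 1.08-fold (1.02 to 1.13), and chromosome 6 as a whole had a median log2 ratio of 0.24 between the H3.3K36M and H3.3WT lines, above the 0.10 of all rows.

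Along the body of Col1a2 tagged H3.1 was sparse. The row chr6:4480001-4490000, the highest of the gene in H3.3WT, had 23.3 RPM in the H3.3K36M line, 18.7 RPM in the H3.3WT line, 0.892 RPM in the H3.1K36M line (37 reads) and 1.67 RPM in the H3.1WT line (59 reads). H3.3K36M exceeded H3.1K36M there by 26.1-fold (18.8 to 37.3), rank 2 of all rows, and H3.3WT exceeded H3.1WT by 11.2-fold (8.59 to 14.8), rank 12. The row chr6:4470001-4480000, the highest of the gene in H3.3K36M, had 23.8, 15.9, 1.16 and 1.84 RPM in the H3.3K36M line, H3.3WT, H3.1K36M and H3.1WT, with H3.3K36M 20.6-fold H3.1K36M (15.4 to 28.1), rank 6. These ratios are among the largest of the genome in the mutant lines, and the low H3.1 counts leave their intervals wide. At the 3′ end row, chr6:4490001-4500000, the H3.3 lines changed order, with 12.7 RPM in the H3.3K36M line and 17.3 RPM in the H3.3WT line, 1.36-fold lower in H3.3K36M (1.22 to 1.53). At the start row, chr6:4450001-4460000, H3.3K36M had 15.3 RPM and H3.3WT 11.2 RPM, 1.37-fold higher in H3.3K36M (1.22 to 1.54).

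Col3a1, the gene of type III collagen, had the largest differences between K36M and WT in the means of the 6 genes, and in opposite directions for the 2 variants. Over rows wholly inside the genes its H3.3 ratio was also the largest, at a log2 ratio of 0.67, but the H3.1 ratio was lower at Col1a1 (-0.94) and Col1a2 (-0.69) than at Col3a1 (-0.50). Its 5 rows averaged 16.9 RPM in the H3.3K36M line, 11.4 RPM in the H3.3WT line, 2.29 RPM in the H3.1K36M line and 3.27 RPM in the H3.1WT line, and its flank 9.37, 8.86, 5.11 and 5.19 RPM. H3.3K36M was 1.49-fold H3.3WT (1.41 to 1.57), at percentile 84.7 of the ratios of all rows. H3.1K36M was 0.703-fold H3.1WT (0.62 to 0.79), at percentile 2.11. In the flank the ratios were 1.06-fold (1.00 to 1.12) for H3.3 and 0.984-fold (0.91 to 1.06) for H3.1. All 5 rows had more H3.3K36M than H3.3WT and less H3.1K36M than H3.1WT.

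Within Col3a1 the highest row in both H3.3 lines was chr1:45370001-45380000, with 19.8 RPM in the H3.3K36M line, 13.6 RPM in the H3.3WT line, 2.31 RPM in the H3.1K36M line and 3.23 RPM in the H3.1WT line. The start row, chr1:45360001-45370000, had 17.7 RPM in the H3.3K36M line and 11.9 RPM in the H3.3WT line, 1.49-fold (1.33 to 1.67). The row with the largest H3.3K36M to H3.3WT ratio of the 38, chr1:45380001-45390000, was chosen after its values were seen. It had 16.9 RPM in the H3.3K36M line and 9.42 RPM in the H3.3WT line, 1.79-fold (1.59 to 2.03). The 3′ end row, chr1:45400001-45410000, had the smallest excess of the gene, with 15.6 RPM in the H3.3K36M line and 12.9 RPM in the H3.3WT line, 1.21-fold (1.08 to 1.36). The excess of H3.3K36M did not stop at the gene: the next row downstream, chr1:45410001-45420000, had 18.2 RPM in the H3.3K36M line and 12.4 RPM in the H3.3WT line, and most of its bases lay in the same peak.

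Col5a2, which encodes the alpha 2 chain of type V collagen, lies next to Col3a1 and is the longest of the 6 genes. Its 14 rows averaged 13.3 RPM in the H3.3K36M line, 11.4 RPM in the H3.3WT line, 2.92 RPM in the H3.1K36M line and 3.55 RPM in the H3.1WT line, and its flank 9.26, 9.34, 4.84 and 4.65 RPM. H3.3K36M was 1.17-fold H3.3WT (1.13 to 1.21) and H3.1K36M was 0.825-fold H3.1WT (0.77 to 0.88), while the flank intervals held 1 for both. In rows wholly inside the gene the level ran from 10.6 to 16.8 RPM in the H3.3K36M line and from 8.49 to 15.0 RPM in the H3.3WT line. The highest row in H3.3K36M, chr1:45550001-45560000, had 16.8 RPM there and 13.4 RPM in the H3.3WT line, and the highest row in H3.3WT, chr1:45460001-45470000, had 14.8 RPM in the H3.3K36M line and 15.0 RPM in the H3.3WT line. The start row, chr1:45560001-45570000, most of which lies outside the gene, stood apart from the body, with 9.07 RPM in the H3.3K36M line, 10.9 RPM in the H3.3WT line, 5.62 RPM in the H3.1K36M line and 5.97 RPM in the H3.1WT line. It was the row that missed the 2-fold excess of H3.3 over H3.1 in the WT lines, and with the 3′ end row of Sparc it was also short of it in the K36M lines.

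Fn1, the fibronectin gene, had the lowest H3.1 level of the 6 in both H3.1 lines. Its 7 rows averaged 12.6 RPM in the H3.3K36M line, 13.2 RPM in the H3.3WT line, 1.55 RPM in the H3.1K36M line and 1.95 RPM in the H3.1WT line, and its flank 6.71, 7.96, 4.27 and 4.76 RPM. H3.3K36M was 0.954-fold H3.3WT with an interval of 0.91 to 0.998, the only one of the 6 genes with an interval below 1. H3.1K36M was 0.795-fold H3.1WT (0.70 to 0.91). The flank ratio was lower still for H3.3, at 0.842-fold (0.80 to 0.89), and relative to its flank the gene had a log2 ratio of 0.18.

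The gene mean of Fn1 hides a difference in shape: the H3.3K36M level was flat along the gene and the H3.3WT level was highest at its 3′ end. The row with the start, chr1:71690001-71700000, had 12.8 RPM in the H3.3K36M line and 9.37 RPM in the H3.3WT line. The row with the 3′ end, chr1:71630001-71640000, had 12.5 RPM in the H3.3K36M line and 19.03 RPM in the H3.3WT line. The 5 rows between lay from 11.6 to 13.4 RPM in the H3.3K36M line and from 10.7 to 15.6 RPM in the H3.3WT line. H3.3K36M was therefore 1.36-fold higher at the start (1.20 to 1.55) and 1.52-fold lower at the end (1.36 to 1.71). The H3.1 lines had 1.57 RPM in the H3.1K36M line and 1.90 RPM in the H3.1WT line at the start, and 1.88 RPM in the H3.1K36M line and 1.81 RPM in the H3.1WT line at the end, too close to be told apart at this depth. The end row had an H3.3WT to H3.1WT ratio of 10.5-fold (8.15 to 13.8), rank 21 of all rows, and 6.64-fold in the K36M lines (5.22 to 8.55). Past the end, the row chr1:71620001-71630000 had 10.2 RPM in the H3.3K36M line and 14.6 RPM in the H3.3WT line, 1.44-fold lower in H3.3K36M.

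Of the 6 genes, Sparc had the smallest H3.3 to H3.1 ratios in the gene means. Between K36M and WT it showed no difference beyond counting error over the gene as a whole. Its 4 rows averaged 11.8 RPM in the H3.3K36M line, 11.9 RPM in the H3.3WT line, 3.96 RPM in the H3.1K36M line and 3.93 RPM in the H3.1WT line, and its flank 7.42, 7.84, 6.27 and 6.25 RPM. H3.3K36M was 0.994-fold H3.3WT (0.93 to 1.06) and H3.1K36M was 1.01-fold H3.1WT (0.90 to 1.13). The rows were not alike. The row highest in both H3.3 lines, chr11:55220001-55230000, had 14.8 RPM in the H3.3K36M line and 12.1 RPM in the H3.3WT line, 1.22-fold (1.09 to 1.37). The 3′ end row, chr11:55200001-55210000, had 8.68 RPM in the H3.3K36M line and 11.9 RPM in the H3.3WT line, 1.38-fold lower in H3.3K36M (1.20 to 1.58), and the start row, chr11:55230001-55240000, had 11.5 RPM in the H3.3K36M line and 11.8 RPM in the H3.3WT line. Of the bases in the rows of Sparc, 65.0% lie in the gene. Over the rows wholly inside it the H3.3K36M to H3.3WT ratio was 1.14-fold (1.05 to 1.24). Over such rows Sparc did not have the smallest H3.3 to H3.1 ratios. H3.3WT was 4.12-fold H3.1WT, above Col3a1 (3.35-fold) and Col5a2 (3.37-fold). H3.3K36M was 5.41-fold H3.1K36M, above Col5a2 (5.06-fold).

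Taking the 6 genes side by side, the 4 fibrillar collagen genes had more H3.3K36M than H3.3WT by their intervals, Fn1 had slightly less (a log2 ratio of -0.07, which is 0.043 over its rows wholly inside the gene), and Sparc could not be told apart. Among the H3.3K36M to H3.3WT ratios of all rows, Col1a1 lay at percentile 54.5, Col5a2 at 60.4, Col1a2 at 68.7 and Col3a1 at 84.7. A gene mean pools several rows, so its interval is narrower than that of a single row. An interval above 1 thus did not mean a ratio rare in the genome. The median log2 ratio over the 6 genes was 0.19, against 0.10 over all rows and 0.13 over rows with an H3.3K36M peak. Since the peaks were called in H3.3K36M, rows in peaks are chosen in part for a high H3.3K36M level. With the scaling by row ratios the median of the genes was 0.07 and that of all rows -0.02. No gene changed direction, but the interval of Col1a1 then held 1, at 1.02-fold (0.97 to 1.08), and that of Sparc lay below 1, at 0.914-fold (0.86 to 0.97). No gene row differed 2-fold between H3.3K36M and H3.3WT, against 2.94% of all rows higher and 1.81% lower. At 1.5-fold, 3 gene rows were higher in H3.3K36M and 1 was lower, against 14.5% and 8.63% of all rows. Among rows with an H3.3K36M peak these shares were 11.1% and 2.44%. The log2 ratio was above 0 in 29 of the 38 gene rows, against 58.4% of all rows and 65.4% of peak rows. The intervals of 24 rows lay above 1 and of 6 below 1, against 26.8% and 20.6% of all rows. Among peak rows these shares were 40.8% and 16.1%. An interval narrows as reads rise. Gene rows had a median of 13.9 RPM in H3.3K36M, far above the median of all rows, so their intervals miss 1 more readily.

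For H3.1 the difference was one-sided. Col1a2, Col3a1, Col5a2 and Fn1 had less H3.1K36M than H3.1WT by their intervals, and the intervals of Col1a1 and Sparc held 1. The median log2 ratio over the 6 genes was -0.29, against -0.00 over all rows and -0.03 over rows with an H3.3K36M peak. It was -0.44 over rows wholly inside the genes and -0.11 with the flank ratio subtracted, where 4 of the 6 genes were below 0. No gene row differed 2-fold, against 0.0122% of all rows higher and 0.064% lower. At 1.5-fold, 7 of the 38 gene rows were lower in H3.1K36M and 0 higher, against 1.02% and 0.74% of all rows. Among rows with an H3.3K36M peak these shares were 3.14% and 0.787%. The log2 ratio was below 0 in 31 of the 38 gene rows, against 50.2% of all rows and 55.1% of peak rows. The intervals of 16 rows lay below 1 and of 0 rows above 1, against 7.06% and 6.41% of all rows. Among peak rows these shares were 13.3% and 6.75%. The plot of K36M over WT by row shows the H3.3 and H3.1 ratios of each gene. In the gene means the H3.3 ratio lay above the H3.1 ratio at every gene but Sparc. There the log2 ratios were -0.008 for H3.3 and 0.011 for H3.1.

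**Figure D4:**
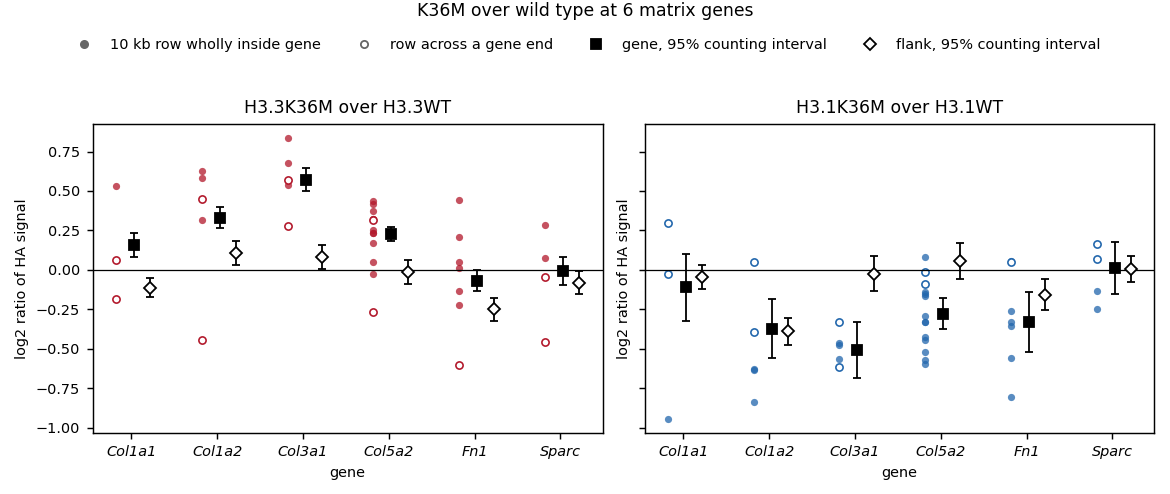
Log2 ratio of K36M over WT per row for H3.3 and for H3.1 at the 6 genes. Filled dots are rows wholly inside the gene, open dots rows across a gene end, squares gene means and diamonds flank means; inside Col1a1, Col1a2 and Col3a1 every filled dot lies above 0 for H3.3 and below 0 for H3.1.

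More H3.3K36M than H3.3WT together with less H3.1K36M than H3.1WT was found in 27 of the 38 gene rows, against 29% of all rows and 36.6% of rows with an H3.3K36M peak. It was found in 22 of the 27 rows wholly inside the genes and in 15 of the 52 flank rows. Over the gene rows the 2 log2 ratios had a Pearson correlation of -0.53, over the flank rows -0.33 and over all rows 0.047. These are descriptions: neighbouring rows of a gene share their library and lie next to each other, and RPM is a share of a fixed total, so rows are not replicates.

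The H3.3 difference varied with the position of the row. Of the 27 rows wholly inside the genes, 12 lie in Col5a2 and 3 in its neighbour Col3a1, so 1 locus weighs heavily. In these 27 rows the log2 H3.3K36M/H3.3WT ratio had a median of 0.32 and lay above 0 in 24. In the 6 rows that hold a 3′ end the median was -0.31. Most bases of the end rows of Col1a2 and Sparc lie outside the gene, and flank rows had a median of -0.07. Gene end and downstream bases cannot be told apart in such rows. Of these end rows, those of Col1a1, Col1a2, Fn1 and Sparc had less H3.3K36M by their intervals, and those of Col3a1 and Col5a2, whose 3′ ends face each other on chromosome 1, had more. In the 6 rows that hold a start the median was 0.25, with 3 intervals above 1 (Col1a2, Col3a1, Fn1) and 1 below (Col5a2). For H3.1 the medians were -0.43 in rows wholly inside, 0.05 in end rows and -0.17 in start rows. The start row of Fn1 counts both as a start row and as wholly inside.

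In order of H3.3K36M level the genes ran Col1a1, Col1a2, Col3a1, Col5a2, Fn1 and Sparc, and each neighbour in that order differed beyond its counting interval. In H3.3WT the order was Col1a1, Col1a2, Fn1, Sparc, Col3a1 and Col5a2, in which Sparc could not be told from Col3a1 or Col3a1 from Col5a2. In H3.1K36M the order was Sparc, Col1a1, Col5a2, Col3a1, Col1a2 and Fn1, with the pairs Col1a1 and Col5a2, and Col3a1 and Col1a2, within counting error. In H3.1WT it was Sparc, Col5a2, Col1a1, Col3a1, Col1a2 and Fn1, with the pairs Col5a2 and Col1a1, and Col1a1 and Col3a1, within counting error. These orders use every row that touches a gene. Over rows wholly inside the genes, Col5a2 was above Sparc in H3.1K36M (2.67 against 2.51 RPM) and in H3.1WT (3.36 against 2.89 RPM). Col1a2 was there below Fn1 in both H3.1 lines. Sparc had 13.6 RPM in H3.3K36M over such rows, above Fn1 (12.6 RPM) and close to Col5a2 (13.5 RPM). By the mean absolute difference of log2 levels over the 4 libraries, the pairs Col3a1 and Col5a2, and Col5a2 and Sparc, were the most alike at 0.20 each, and Col1a1 and Fn1 the least alike at 0.80.

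A high H3.3K36M level did not go with a called peak in every gene. Fn1, with no peak, averaged 12.6 RPM, and of the 4047 rows of the genome at or above that level 43.5% held no peak. For Sparc the share was 46.6% of 5294 rows, and for Col5a2, covered at 2.77%, it was 39.5% of 3140 rows. The 14 gene rows with peak bases had a median of 17.3 RPM in the H3.3K36M line, 13.9 RPM in the H3.3WT line, 2.30 RPM in the H3.1K36M line and 3.20 RPM in the H3.1WT line. The 24 gene rows without had medians of 13.0, 11.9, 2.69 and 3.17 RPM in the same order. Most of these 24 rows belong to Col5a2 and Fn1. The split is made in part on the H3.3K36M level itself, because the peaks were called in that line.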

How the data were processed

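Tagged histone was measured by HA ChIP-seq in 4 lines, 1 library each. Groups follow the genotype field of the labels. On both H3.3 ChIP samples the title opens with the name of an H3.1 line, against the genotype. The protocol names an antibody to Cbx2 where the description says HA, which was followed. Bowtie 1.0.0 and mm9 are named, per the submitters' processing notes. The peak caller, its threshold and its control were not given in the sources used here, nor was any step on duplicates or on extending reads. The authors deposited RPM per row for the 4 HA libraries, and peak positions for H3.3K36M and H3.1K36M. All RPM values were whole multiples of a smallest step (100% within 0.01 of a read), which gave the reads behind each value. Columns of unmapped samples numbered 0.

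Used were 10 kb rows on chromosomes 1 to 19 and X whose 4 libraries averaged 0.5 RPM or more. Log2 ratios of rows and genes carry a pseudocount of 0.1 RPM, which understates changes of low rows, and folds of RPM carry none. Differences were called by a rule of size (2-fold) or by a counting interval that misses 1; neither is a test. The ratio and interval steps were run on simulated independent reads with known folds, which checks the calculation only. Duplicate reads and variation between repeats were not simulated. All 6 members, their start and end rows and the row highest in each H3.3 line were named by rule; other rows named were chosen after their values were seen. Members and lists were chosen with earlier results of these data known. Positions of other matrix genes in mm9 were not used here, so no wider list is given. Strands are from the RefSeq GRCm38.p6 promoter table for Col1a2, Col3a1 and Sparc, and from general knowledge for Col1a1, Col5a2 and Fn1. Rows wholly inside a gene and the subtraction of the flank were alternatives chosen after seeing the data. Matplotlib 3.10.9, scipy 1.17.1, pandas 2.3.3, numpy 2.4.6 and Python 3.11.15 were used.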

Additional observations from a re-analysis of the deposited data

Results flagged for a closer look

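In the gene means, at 3 genes the log2 ratio of K36M over WT was positive for H3.3 and negative for H3.1. Each counting interval lay on its own side of 1. Of all rows, 29% had these signs, 26.8% had an H3.3 interval above 1 and 7.06% an H3.1 interval below 1. The share of rows with both intervals was not counted. A gene mean pools several rows, so its interval is narrower than that of a single row. The H3.3 ratio minus the H3.1 ratio was 1.06 at Col3a1, 0.69 at Col1a2 and 0.50 at Col5a2. With 1 library per line this difference between the variants was not tested. In the flanks the same difference was 0.10 at Col3a1, 0.49 at Col1a2 and -0.07 at Col5a2. Over rows wholly inside the genes it was 1.17 at Col3a1, 1.19 at Col1a2 and 0.57 at Col5a2. Col1a1, whose gene mean had an H3.1 interval that held 1, had the largest difference in its row wholly inside, at 1.47. Col3a1 and Col5a2 are neighbours on chromosome 1 and do not count as separate loci.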

How the results depend on the processing

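Of 96 summary values under alternatives, 73 moved by less than their counting error or stayed within 1.5 times a count, 23 moved further and 0 reversed; of 192 values of single genes, 103 stayed, 79 moved and 10 reversed. The cause was not tested except where fewer rows or a subtraction makes the value. Keeping wider rows and dropping the filter on low rows could not change a value. The genes and flanks held 0 wider rows and 0 filtered rows. The values under these alternatives count among those that stayed, so the tally overstates how stable the results are. Between H3.3K36M and H3.3WT the median log2 ratio (0.19) was 0.069 when scaled by all row ratios, 0.11 with the own chromosome's median subtracted and 0.38 over rows wholly inside the gene. Under that comparison Sparc turned to 0.028 (chromosome), 0.19 (rows with at least 5 kb inside), 0.19 (rows wholly inside) and 0.071 (flank subtracted), and Fn1 to 0.043 (wholly inside) and 0.18 (flank subtracted). For H3.1K36M over H3.1WT, Sparc turned to -0.030 (chromosome) and to -0.20 both with at least 5 kb inside and wholly inside, and Col1a2 to 0.023 with the flank subtracted; the median (-0.29) was -0.44 wholly inside and -0.11 with the flank subtracted. Counted at 1.5-fold in place of 2-fold, 3 gene rows were higher and 1 lower in H3.3K36M, and 7 were lower in H3.1K36M. The median for H3.3WT over H3.1WT (2.08) was 1.81 with a pseudocount of 1 RPM, 2.49 scaled, 2.46 by chromosome, 2.25 with at least 5 kb inside, 2.29 wholly inside and 1.60 with the flank subtracted. That for H3.3K36M over H3.1K36M (2.84) was 2.43 with a pseudocount of 1 RPM, 3.12 scaled, 3.15 by chromosome and 2.13 with the flank subtracted. Gene over flank in H3.3K36M (0.87) was 0.71 with a flank of 20 kb and 1.22 with 100 kb, and in H3.3WT (0.66) 0.51 and 0.84. In H3.1K36M (-1.15) it was -0.91 with a pseudocount of 1 RPM and -1.31 with at least 5 kb inside, and in H3.1WT (-0.89) -1.15 with at least 5 kb inside. No paired analysis was possible because each line had 1 HA library. Depth limits the H3.1 ratios most, since the lowest gene row rests on 37 reads in H3.1K36M.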
